A study of Rattus norvegicus with 6 samples.

Results

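Chemokines, interleukins and their receptors were examined in heart tissue of adult male Wistar rats, an outbred laboratory strain. Members were all gene symbols of the deposited count table that begin with Ccl, Cxcl, Ccr, Cxcr or Il followed by a digit, with the rows of a symbol added together, and 121 of 17487 symbols met this rule. The treated group was 3 rats given doxorubicin hydrochloride, an anthracycline chemotherapy drug with known cardiac toxicity, at 3.75 mg/kg into the tail vein once a week for 4 weeks, and the control group was 3 rats given 0.9% saline by the same route and schedule. Each rat gave 1 RNA-seq library. The labels named no transgene, genetic change, tumour or other agent in either group. They did not give the age in weeks, the part of the heart taken or the interval after the last injection.

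Chemokines are small secreted proteins that guide leukocytes along concentration gradients through receptors coupled to G proteins, and they are named CC or CXC from the spacing of their first cysteines. Interleukins are cytokines with several receptor designs. Many use type I cytokine receptors that signal through JAK kinases and STAT transcription factors and are switched off by SOCS proteins, while the interleukin-1 family signals through MyD88 and IRAK kinases to NF-kappaB. In the heart these transcripts come from resident macrophages, endothelial cells, fibroblasts and cardiomyocytes as well as from leukocytes that enter the tissue.

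The libraries held 2219685 to 3508282 counts, and members took 0.0895% to 0.101% of the counts in control and 0.103% to 0.114% in doxorubicin libraries. Control library 1 lay apart on the first principal component of all tested genes, at -43.3 against -4.83 to 26.6 for the other libraries. Of 12 cardiomyocyte markers, 11 were in the table and all 11 passed the low-count filter, with a summed level of 141260 to 167530 CPM in control and 132730 to 145470 CPM in doxorubicin libraries. CPM here means counts scaled to a common library total with TMM factors. Libraries of a group were separate animals per the labels, and the closest pair, control libraries 2 and 3, still differed beyond sampling noise (chi-square per degree of freedom 4.32).

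Most members were scarcely detected in these hearts. Of the 121 symbols, 34 were listed at 0 in every library and 28 had 1 to 9 counts over the 6 libraries together. A further 28 had 10 or more counts in all but did not pass the low-count filter. The remaining 31 (25.6%) passed and were tested. The smallest level taken as detectable was 3 counts in a library, which is 0.852 to 1.33 CPM, and 31 members reached it in all 6 libraries. Members listed at 0 included Il6 and Il10, a pro-inflammatory and an anti-inflammatory cytokine, Cxcr3, the receptor of Cxcl9, Cxcl10 and Cxcl11, and Il2rg, the receptor chain shared by the interleukin-2 family. The table also listed the broadly expressed signalling genes Ptpn11, Irak1 and Ikbkg at 0 in every library, so a 0 here states only what the table lists. Levels are not compared between genes, because transcript lengths were not used here.

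**Figure D1:**
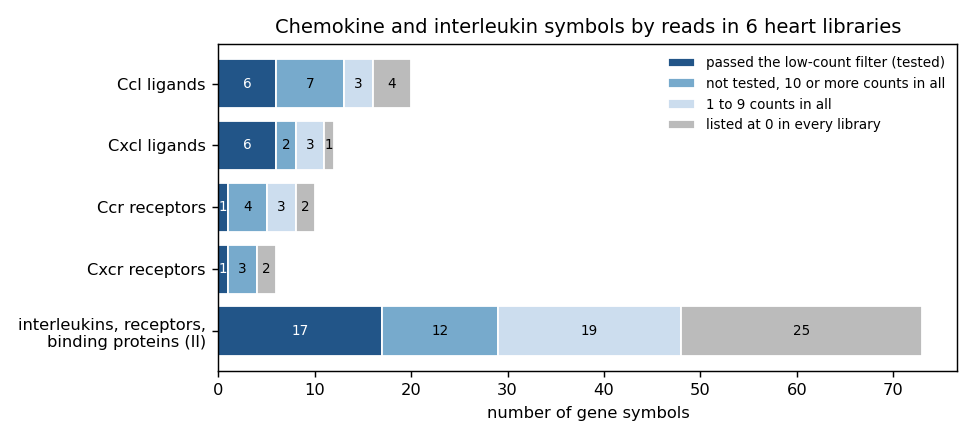
Number of member symbols (x axis) in each symbol family (y axis), divided by the reads they had in the 6 libraries; numbers in the bars are symbols. Tested genes made up 6 of 20 Ccl, 6 of 12 Cxcl, 1 of 10 Ccr, 1 of 6 Cxcr and 17 of 73 Il symbols.

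Doxorubicin was compared with control to ask which of these transcripts differed in the heart after repeated dosing. No tested member passed the adjusted threshold of 0.05 in edgeR's quasi-likelihood test, where 5 of 9205 tested symbols (0.0543%) did. Cxcl11 had the lowest adjusted p of the members, 0.157 by edgeR. In the DESeq2 fit 1 member passed, Cxcl11, where 76 of 9205 symbols (0.826%) did, and under limma voom 0 members and 0 of all symbols passed. At an unadjusted p under 0.05 there were 6 of 31 members (19.4%), against 8.10% of all tested symbols. Of these, 4 had higher levels in doxorubicin hearts (4.00% of all tested symbols did) and 2 had lower ones. Groups did not overlap for 7 of 31 members (22.6%), against 13.4% of all tested symbols. In 5 of the 7 all doxorubicin values were the higher ones (6.39% of all tested symbols), and in 2 they were the lower ones (7.06%).

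The low-count filter bears on those shares. Il1b, Ccl7 and Cxcl14 passed it only because all 3 doxorubicin libraries lay above its cutoff, 3.23 CPM before TMM scaling, while no control library did, so these genes had to differ in order to be tested. Among the other 28 tested members 4 (14.3%) had an unadjusted p under 0.05 and 4 (14.3%) had groups that did not overlap. With symbols that passed through 1 group only left out in the same way, an alternative chosen after seeing the data, the shares over all 9172 remaining symbols were 7.88% and 13.1%. Log2 fold changes were above 0 for 19 of 31 members (61.3%) and for 52.1% of all tested symbols, with medians of 0.04 for members and 0.02 for all. Scaled by library size only, 24 of 31 members and 63.2% of all tested symbols were above 0. Without control library 1, which lay apart, 2 members had an unadjusted p under 0.05, Cxcl11 and Ccl21. Of the 6 members, Cxcl11 alone kept an unadjusted p under 0.05 in each of the 6 fits that left out 1 library.

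**Figure D2:**
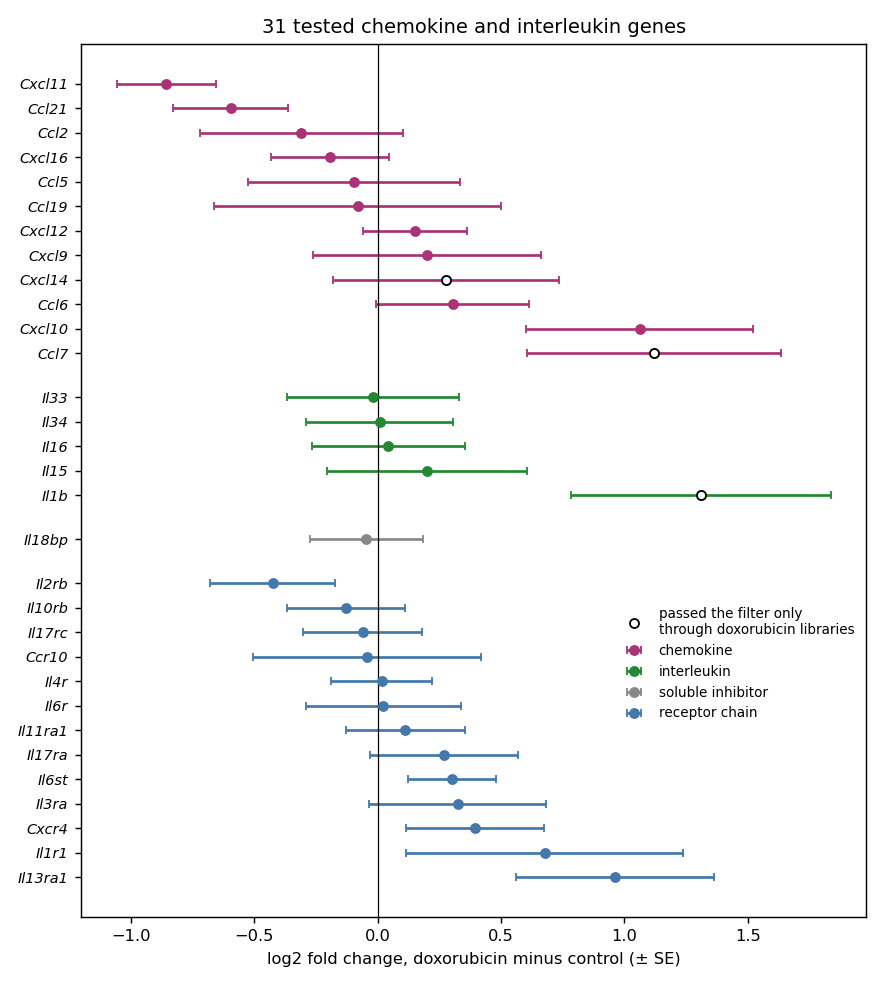
Log2 fold change of doxorubicin minus control (x axis, points with SE bars from edgeR) for each of the 31 tested members (y axis), grouped by role. Open circles mark Il1b, Ccl7 and Cxcl14, which passed the low-count filter only through the doxorubicin libraries; Cxcl11 at -0.86 and Il1b at 1.31 are the lowest and highest values.

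Among the chemokines, 12 ligands were tested, 6 with a log2 fold change above 0 and 6 below, of which Ccl19 was above 0 when scaled by library size only. Cxcl11, Cxcl10 and Cxcl9 are CXC ligands induced by interferons that attract activated T cells and natural killer cells through Cxcr3. Cxcl11 was 58.0, 56.0 and 60.2 CPM in control libraries 1, 2 and 3 and 27.3, 36.2 and 32.7 CPM in doxorubicin libraries 1, 2 and 3. Each doxorubicin heart was therefore below each control heart, and the control values lay close together. Mean levels were 58.1 ± 2.11 and 32.1 ± 4.49 CPM (SD, n = 3), and the fitted log2 fold change was -0.86 (SE 0.20, unadjusted p 0.000783, adjusted p 0.157 by edgeR). In DESeq2 the log2 fold change was -0.86 (SE 0.24) at an adjusted p of 0.0455.

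Cxcl10 had the opposite order on few reads. It was 1.53, 3.55 and 4.83 CPM in control libraries and 5.46, 8.74 and 7.07 CPM in doxorubicin libraries, from 4 to 17 and 17 to 28 counts. The groups did not overlap, with control library 1 the lowest. The log2 fold change was 1.06 (SE 0.46, unadjusted p 0.0375, adjusted p 0.576 by edgeR), and it was 0.73 without control library 1. Cxcl9 overlapped between the groups, at 7.64, 2.22 and 4.54 CPM in control and 6.10, 6.24 and 4.42 CPM in doxorubicin libraries, with a log2 fold change of 0.20 (SE 0.46).

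In the RefSeq gene list of the rat assembly GRCr8 both Cxcl10 and Cxcl11 lie inside the span of Art3, an ADP-ribosyltransferase gene on the opposite strand. The use of strand in the counting was not given in the sources used here, so reads of Art3 and of these chemokines may not be separable. Art3 had 885, 844 and 1661 counts in control and 1487, 1404 and 1674 counts in doxorubicin libraries. Art3 had a log2 fold change of 0.25 (SE 0.18, edgeR adjusted p 0.766). In all, 7 of the 31 tested members overlap a protein-coding gene in that list. Whether Art3 reads contributed to either chemokine was not tested.

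The regions around the start sites of these neighbouring genes are shown because Cxcl10 and Cxcl11 had log2 fold changes of opposite sign. They come from RefSeq on GRCr8, run from 250 bases before to 50 bases after the start on the + strand, and lie at chr14:15988816-15989115 for Cxcl10 and chr14:15973478-15973777 for Cxcl11. The build named in the submitters' processing notes was mRatBN7.2, so these positions are not those of the count table. Capitals mark matches on either strand to the kappaB consensus, to the interferon-stimulated response element TTTCNNTTTC or to the STAT-binding GAS motif TTCNNNGAA.
Cxcl10: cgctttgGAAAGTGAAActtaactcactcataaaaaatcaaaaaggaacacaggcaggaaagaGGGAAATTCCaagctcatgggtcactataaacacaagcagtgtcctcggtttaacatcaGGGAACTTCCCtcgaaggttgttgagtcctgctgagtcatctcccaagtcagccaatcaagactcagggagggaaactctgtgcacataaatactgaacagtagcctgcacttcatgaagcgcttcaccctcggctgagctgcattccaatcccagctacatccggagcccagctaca
Cxcl11: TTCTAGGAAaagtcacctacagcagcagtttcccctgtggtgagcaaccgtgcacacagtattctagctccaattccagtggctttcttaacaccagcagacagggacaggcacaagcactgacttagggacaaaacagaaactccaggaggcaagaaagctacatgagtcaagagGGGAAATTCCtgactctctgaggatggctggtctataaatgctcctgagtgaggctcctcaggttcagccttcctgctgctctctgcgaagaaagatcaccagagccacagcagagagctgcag

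The Cxcl10 region held 1 match to the interferon-stimulated response element and 3 to the kappaB consensus, the last pair of which overlap. The Cxcl11 region held 1 kappaB match and 1 GAS match. Over all 33469 RefSeq regions of this length, 7.51% held a kappaB match, 3.92% a match to the interferon-stimulated response element and 8.87% a GAS match. Of the 25 such regions of tested members, which belong to 24 symbols, 6 held a kappaB match, 4 the interferon-stimulated response element and 4 a GAS match. A match describes the letters and does not show binding.

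Ccl21 and Ccl19 are ligands of Ccr7 that draw dendritic cells and naive lymphocytes to lymphatic vessels and lymph nodes. Ccl21 was 50.8, 48.0 and 47.4 CPM in control libraries and 43.0, 29.0 and 24.8 CPM in doxorubicin libraries. All 3 doxorubicin hearts were below all 3 controls, with doxorubicin library 1 the nearest to them. The log2 fold change was -0.60 (SE 0.23, unadjusted p 0.0222, adjusted p 0.499 by edgeR). Ccl19 overlapped widely between the groups, on 4 to 18 counts per library, with a log2 fold change of -0.08 (SE 0.58). Ccr7 itself had 0 to 1 counts in control and 1, 6 and 3 counts in doxorubicin libraries.

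Ccl2 and Ccl7 are monocyte attractants that act through Ccr2. Ccl7 was 1.91, 3.11 and 1.42 CPM in control and 6.42, 3.74 and 3.54 CPM in doxorubicin libraries, from 5 to 7 and 12 to 20 counts. The groups did not overlap, and the log2 fold change was 1.12 (SE 0.52, unadjusted p 0.0470, adjusted p 0.605 by edgeR). Ccl2, by contrast, had 13, 13 and 19 counts in control and 16, 10 and 16 counts in doxorubicin libraries, with overlapping groups and a log2 fold change of -0.31 (SE 0.41). Ccr2 had 2, 10 and 4 counts in control and 4, 2 and 6 counts in doxorubicin libraries, too few to detect a difference. Ccl12, a further ligand of Ccr2, had 0, 1 and 1 counts in control and 2, 3 and 6 counts in doxorubicin libraries.

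The other tested chemokines did not separate the groups, apart from Cxcl14. Cxcl12, which holds stem cells and leukocytes in tissue through Cxcr4, was 90.5, 127 and 107 CPM in control and 88.9, 142 and 129 CPM in doxorubicin libraries, a log2 fold change of 0.15 (SE 0.21, adjusted p 0.889 by edgeR). Its counts stood on 3 rows of the table, of which 1 was listed at 0 and the others held 1242 and 826 counts. Doxorubicin library 3 had 327 counts on the former and 110 on the latter, while doxorubicin library 2 had 234 and 221, so the 2 rows put these libraries in different orders. What the rows represent was not given in the sources used here.

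Cxcl16, a chemokine that also exists as a membrane-bound scavenger receptor, had a log2 fold change of -0.19 (SE 0.24). Ccl6, a macrophage-derived CC chemokine of rodents, had 0.30 (SE 0.31), and Ccl5, a T cell and monocyte attractant, had -0.10 (SE 0.43). Doxorubicin hearts varied widely for Ccl5, at 3.53, 15.6 and 10.3 CPM against 9.77 to 11.4 CPM in control. Cxcl14, a chemokine of epithelial and stromal cells, was 2.56 to 3.11 CPM in control and 3.21 to 4.06 CPM in doxorubicin libraries. Its groups did not overlap, but its log2 fold change was 0.28 (SE 0.46) on 7 to 13 counts per library.

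Among the interleukins, 5 were tested, and Il1b was the only one whose groups did not overlap. Il1b encodes interleukin-1 beta, made as a precursor by activated myeloid cells and cleaved by caspase-1. It was 1.53, 1.33 and 2.27 CPM in control and 3.21, 6.55 and 3.54 CPM in doxorubicin libraries, from 3 to 8 and 10 to 21 counts. The 3 doxorubicin hearts were above the 3 controls, and doxorubicin library 2 was the highest. The log2 fold change was 1.31 (SE 0.53, unadjusted p 0.0259, adjusted p 0.527 by edgeR), and it was 0.93 without doxorubicin library 2.

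The regions at the starts of Il1b and Ccl7 are shown because these are the tested ligands with the largest log2 fold changes. They lie at chr3:137036532-137036831 on the - strand and chr10:67513845-67514144 on the + strand of GRCr8, are written in the direction of transcription, and are marked as above.
Il1b: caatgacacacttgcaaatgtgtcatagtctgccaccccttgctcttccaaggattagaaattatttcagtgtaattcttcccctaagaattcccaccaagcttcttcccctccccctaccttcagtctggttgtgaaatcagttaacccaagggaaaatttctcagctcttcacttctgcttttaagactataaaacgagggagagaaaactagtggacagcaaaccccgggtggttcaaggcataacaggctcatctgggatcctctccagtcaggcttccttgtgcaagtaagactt
Ccl7: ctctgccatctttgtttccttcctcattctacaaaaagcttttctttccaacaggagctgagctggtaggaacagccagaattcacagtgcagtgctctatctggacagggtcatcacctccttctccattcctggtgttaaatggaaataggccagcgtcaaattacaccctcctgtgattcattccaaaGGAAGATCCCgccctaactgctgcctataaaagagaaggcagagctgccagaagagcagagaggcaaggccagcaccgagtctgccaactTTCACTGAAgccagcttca

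The Il1b region held none of the 3 motifs in this window, and the Ccl7 region held 1 kappaB match and 1 GAS match, the latter just after the start.

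The 4 other tested interleukins had small log2 fold changes beside their standard errors. Il33, an alarmin stored in the nuclei of stromal and endothelial cells, was 11.1, 32.4 and 29.0 CPM in control and 19.6, 20.0 and 31.8 CPM in doxorubicin libraries, a log2 fold change of -0.02 (SE 0.35). The low value belonged to control library 1, and without it the log2 fold change was -0.35. Il34, the alternative ligand of the macrophage growth factor receptor Csf1r, had 0.01 (SE 0.30). Il16, an attractant of CD4+ cells, had 0.04 (SE 0.31), and Il15, which sustains natural killer and memory T cells, had 0.20 (SE 0.41). Il18bp, a secreted protein that traps interleukin-18, was 24.4 to 31.3 CPM in control and 23.9 to 31.8 CPM in doxorubicin libraries, a log2 fold change of -0.05 (SE 0.23, adjusted p 0.974 by edgeR). Il18 itself had 1, 5 and 9 counts in control and 8, 10 and 10 counts in doxorubicin libraries and was not tested.

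**Figure D3:**
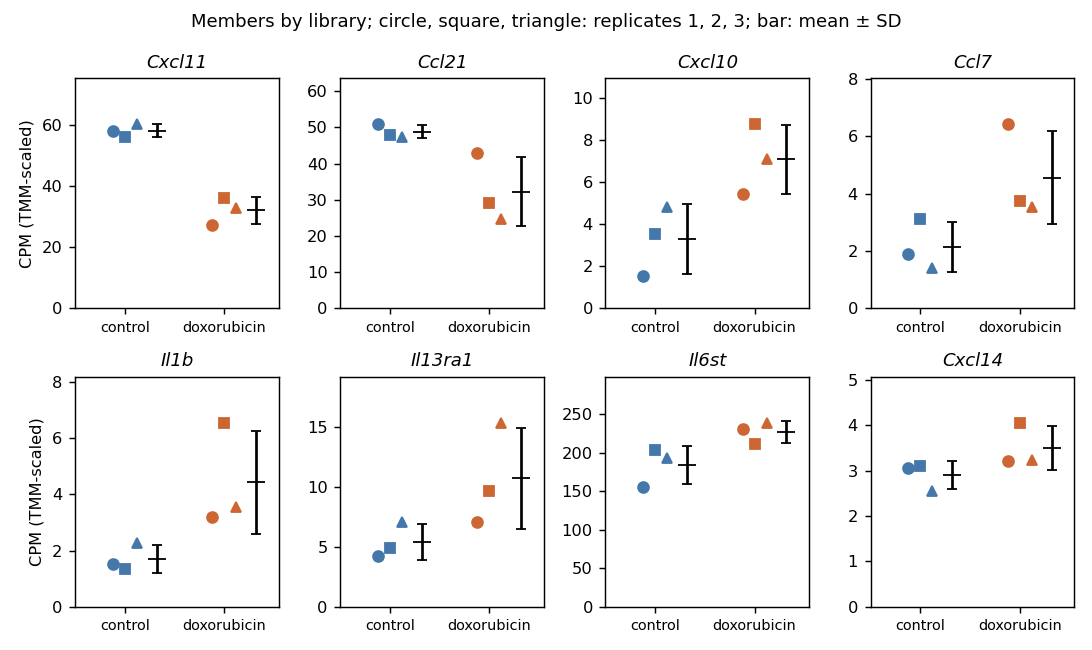
TMM-scaled CPM (y axis, from 0) in each control and doxorubicin library (x axis) for the 6 members with an unadjusted p under 0.05 and for Il6st and Cxcl14; marker shapes are replicate numbers, which do not pair animals, and bars are mean ± SD (n = 3). Only Il13ra1 has groups that overlap, with doxorubicin library 1 at 7.06 CPM just under control library 3 at 7.10 CPM.

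Receptor chains made up 13 of the tested members, 9 with a log2 fold change above 0 and 4 below, with a median of 0.11, and Ccr10 and Il17rc of the 4 were above 0 when scaled by library size only. Il13ra1, which pairs with Il4r to bind interleukin-13 and interleukin-4, was the only one with an unadjusted p under 0.05. Its level was 4.20, 4.89 and 7.10 CPM in control and 7.06, 9.67 and 15.3 CPM in doxorubicin libraries, so the groups met at their edges. The log2 fold change was 0.96 (SE 0.40, unadjusted p 0.0308, adjusted p 0.548 by edgeR), and it was 0.61 at an unadjusted p of 0.166 in edgeR without doxorubicin library 3, the highest. Its partner Il4r was 62.6 to 87.4 CPM in control and 60.7 to 86.3 CPM in doxorubicin libraries, a log2 fold change of 0.02 (SE 0.20, adjusted p 0.988 by edgeR). Of their ligands, Il13 was listed at 0 and Il4 had 0 to 3 counts per library.

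The interleukin-6 family shares the signal-transducing chain gp130, encoded by Il6st, which pairs with ligand-specific chains. Il6st was 156, 203 and 193 CPM in control and 231, 211 and 239 CPM in doxorubicin libraries, from 408 to 811 counts. All doxorubicin values lay above all control values, control library 1 was the lowest, and the log2 fold change was 0.30 (SE 0.18, unadjusted p 0.113, adjusted p 0.697 by edgeR). Without control library 1 it was 0.20. Il11ra1, the interleukin-11 receptor, was 108 to 185 CPM in control and 119 to 209 CPM in doxorubicin libraries, with a log2 fold change of 0.11 (SE 0.24, adjusted p 0.930 by edgeR), and its ligand Il11 had 1 count in all. Il6r, the interleukin-6 receptor, had 0.02 (SE 0.31).

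For the interleukin-1 family, the receptor Il1r1 was 1.15, 8.44 and 10.2 CPM in control and 11.2, 5.30 and 15.6 CPM in doxorubicin libraries. Control library 1 had only 3 counts, and the log2 fold change of 0.68 (SE 0.56) was 0.20 without it. The decoy receptor Il1r2 had 1, 2 and 0 counts in control against 5, 5 and 0, and the receptor antagonist Il1rn had 3, 5 and 1 against 3, 7 and 8. The accessory chain Il1rap, on 2 rows, had 10 counts in all. Il1rl1, the interleukin-33 receptor, had 6 counts in all, 4 of them in doxorubicin library 2.

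Cxcr4, the Cxcl12 receptor, was 27.9, 23.1 and 25.0 CPM in control and 40.1, 40.6 and 19.5 CPM in doxorubicin libraries. Doxorubicin libraries 1 and 2 were above the controls and library 3 below them, with a log2 fold change of 0.39 (SE 0.28, adjusted p 0.753 by edgeR). Without doxorubicin library 3 it was 0.68. Il3ra, a receptor of basophil and myeloid growth signals, had the same split at 31.5, 21.8 and 9.43 CPM against 15.6 to 17.9 CPM in the control group, and a fold change of 0.32 on the log2 scale (SE 0.36).

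Il2rb, a chain shared by the interleukin-2 and interleukin-15 receptors, was 35.5, 25.8 and 22.7 CPM in control and 18.3, 23.7 and 20.3 CPM in doxorubicin libraries. Its log2 fold change was -0.43 (SE 0.25) and was -0.21 without control library 1, which held the highest value. The interleukin-17 receptor chains Il17ra and Il17rc had 0.27 (SE 0.30) and -0.06 (SE 0.24, adjusted p 0.972 by edgeR), and their ligands Il17a and Il17f were listed at 0. Il10rb, a chain of the interleukin-10 and interleukin-22 receptors, had -0.13 (SE 0.24, adjusted p 0.915 by edgeR). Ccr10, a receptor of skin-homing lymphocytes, had -0.04 (SE 0.46), and its span overlaps Cntnap1 in the gene list. Its ligand Ccl27 overlaps Il11ra1 there and had 2 to 13 counts per library, so reads near that boundary may not be separable.

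Several leukocyte receptors and ligands were too low for the filter. Cxcr2, the main chemokine receptor of neutrophils, had 0 counts in each control library and 1, 9 and 6 counts in doxorubicin libraries 1, 2 and 3. In an edgeR fit with no filter, 0 of the 87 members with any read passed the adjusted threshold, against 0.467% of 13050 symbols. An unadjusted p under 0.05 was found for 7 of the 87, a share near the 7.49% of all symbols. Cxcr2 had an unadjusted p of 0.00207 and an adjusted p of 0.180 in that edgeR fit. Cxcl1, a neutrophil attractant that acts through Cxcr2, had 0, 0 and 2 counts in control and 11, 0 and 5 counts in doxorubicin libraries, with an unadjusted p of 0.0343 in that fit. Doxorubicin library 2, the highest for Cxcr2, had no Cxcl1 read.

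The monocyte and macrophage receptor Ccr1 had 1, 7 and 10 counts in control against 9, 21 and 11 in doxorubicin hearts. Counts of Il20rb, a chain of the interleukin-20 receptors, were 6, 1 and 3 in control and 8, 8 and 9 in doxorubicin libraries. Il21r had 5, 6 and 3 against 11, 17 and 2, Il2ra had 1, 4 and 3 against 5, 5 and 9, and Ccl22 had 0, 1 and 1 against 1, 5 and 6. Il27ra went the other way, at 0, 6 and 5 against 2, 3 and 0. Each of these had an unadjusted p above 0.05 with no filter.

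Of the other untested members with 10 or more counts in all that are described here, the groups of each overlapped apart from those of Ccl1. Among the ligands, Ccl1 had 1 count in each control library and 2, 3 and 4 counts in doxorubicin libraries. The inflammatory chemokines Ccl3 and Ccl4 were low in both groups: Ccl3 had 0, 2 and 4 counts in control against 2, 3 and 3, and Ccl4 had 1, 2 and 0 against 1, 6 and 2. The eosinophil attractant Ccl24 had 5, 4 and 9 against 0, 11 and 3, the B cell attractant Cxcl13 had 3, 5 and 8 against 1, 6 and 5, and the Il23a subunit had 3, 6 and 2 against 5, 4 and 5.

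Among the receptors, Cxcr5, which binds Cxcl13, had 2, 1 and 2 counts in control against 0, 3 and 4, and Cxcr6, which binds Cxcl16, had 5, 2 and 4 against 3, 1 and 4. The interleukin-12 receptor chains Il12rb1 and Il12rb2 had 1, 2 and 0 against 0, 5 and 4 and 1, 3 and 15 against 2, 9 and 12. Il10ra, the ligand-binding chain for interleukin-10, had 1, 3 and 3 against 3, 3 and 1. At such counts these values do not show whether the groups differ.

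Markers of leukocytes were read beside these results. Of 16 macrophage markers, all 16 were tested, 15 had a log2 fold change above 0, 5 had an unadjusted p under 0.05 and 0 passed the adjusted threshold in edgeR. Over all tested symbols 52.1% had a log2 fold change above 0 and 8.10% an unadjusted p under 0.05. The 16 macrophage markers summed to 204 to 239 CPM in control and 277 to 383 CPM in doxorubicin libraries. The sum was thus higher in each doxorubicin heart, as were Il1b, Ccl7 and Cxcl10. Il1b and Ccl7, however, passed the low-count filter only through the doxorubicin libraries, so they had to differ in order to be tested. Ccl2, Ccl6, Cxcl16 and Il34 overlapped between the groups. The 9 neutrophil markers summed to 3.11 to 6.11 CPM in control and 8.02, 19.0 and 28.9 CPM in doxorubicin libraries 1, 2 and 3. A few genes carried these sums. Fcgr3a, an antibody receptor that other leukocytes also express, was 2.89 CPM in doxorubicin library 1, and S100a9, a calcium-binding protein of myeloid cells, was 13.0 CPM in doxorubicin library 3. Without Fcgr3a, a choice made after seeing the data, the sums were 5.73, 1.78 and 4.54 CPM in control and 5.14, 16.2 and 28.3 CPM in doxorubicin libraries, so doxorubicin library 1 lay among the controls. None of the 9 passed the low-count filter. Of the granule enzymes on the list, Mpo was listed at 0 and Elane had 2 counts in all. Mmp8 had 0, 0 and 1 counts in control and 2, 3 and 5 counts in doxorubicin libraries. Mmp9 had 0, 0 and 2 against 0, 1 and 6. Csf3r was 0.764, 0.444 and 0.852 CPM in control and 0.963, 5.62 and 6.19 CPM in doxorubicin libraries. Cxcr2 likewise was highest in doxorubicin libraries 2 and 3.

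Of 17 lymphocyte markers, 16 were in the table and 3 were tested. The 16 summed to 40.0 to 42.2 CPM in control and 32.4 to 44.3 CPM in doxorubicin libraries. Cd4 was the largest part of this sum in each library and differed in direction from the other tested markers. It was 12.2, 15.5 and 9.09 CPM in control and 15.1, 23.4 and 12.7 CPM in doxorubicin libraries, a log2 fold change of 0.49. Cd8a and Nkg7 had -0.65 and -0.54. The overlap of the sums thus holds with Cd4 included, and a sum without Cd4 is not given here. Of 7 mast cell markers, 6 were in the table and 2 were tested. The 6 summed to 19.0 to 24.1 CPM in control and 10.6 to 18.7 CPM in doxorubicin libraries, so the groups just separated. Both tested mast cell markers had a log2 fold change below 0, Kit at -0.18 (SE 0.37). The other, Tpsb2, had an unadjusted p under 0.05 in edgeR, against 8.10% of all tested symbols. The untested markers were mixed. Ms4a2 had 0 counts in each control library and 1, 1 and 5 counts in doxorubicin libraries. Cpa3 had 3, 4 and 2 against 2, 8 and 4, Hdc 0, 1 and 2 against 1, 3 and 1, and Fcer1a 2, 2 and 1 against 3, 0 and 0. The 12 endothelial markers, with Robo4 listed at 0, summed to 1378 to 1660 CPM in control and 1214 to 1636 CPM in doxorubicin libraries, so the groups overlapped. Of the 11 tested, 6 had a log2 fold change above 0 and 5 below, and 2 had an unadjusted p under 0.05, against 8.10% of all tested symbols. Both were lower in each doxorubicin heart, as was Ccl21. Cldn5, a tight-junction protein, was 74.1, 66.2 and 58.5 CPM in control and 41.1, 31.5 and 17.1 CPM in doxorubicin libraries, a log2 fold change of -1.15 (SE 0.27, unadjusted p 0.000870, adjusted p 0.158 by edgeR). Tie1, a receptor kinase of endothelial cells, had -0.48 (SE 0.20, unadjusted p 0.0340 by edgeR). In Cldn5, Tie1 and Ccl21 alike, doxorubicin library 1 was the nearest to the controls and library 3 the lowest. Cldn5 and Tie1 were named for their unadjusted p and do not stand for the endothelial list. Pecam1, Tek and Flt1, with log2 fold changes of 0.03, 0.05 and 0.26, had overlapping groups. The part of these cell types in the results on single members was not tested. In bulk tissue a different number of cells of a type and a different amount of RNA per cell cannot be told apart.

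**Figure D4:**
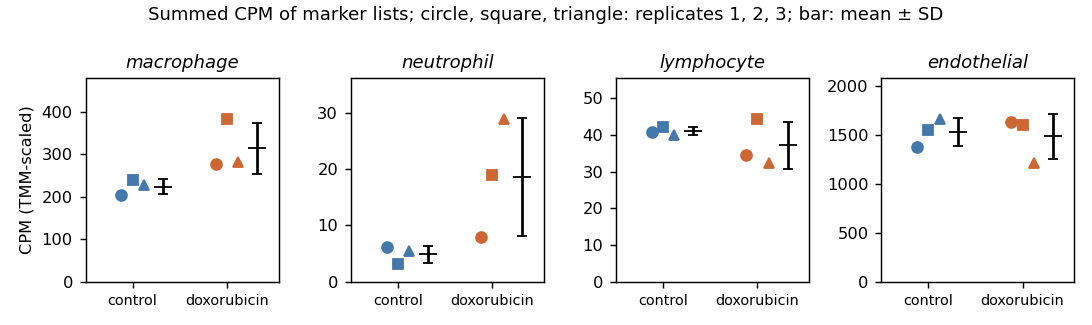
Summed TMM-scaled CPM (y axis, from 0) of the macrophage, neutrophil, lymphocyte and endothelial marker lists in each library (x axis); marker shapes are replicate numbers and bars are mean ± SD (n = 3). Macrophage sums are 204 to 239 CPM in control and 277 to 383 CPM in doxorubicin libraries. Endothelial sums overlap, as do lymphocyte sums with Cd4 included.

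Genes that carry the signals of these receptors were taken from a list of 52, of which 49 were in the table and 41 were tested. None passed the adjusted threshold in edgeR, 30 had a log2 fold change above 0 and 11 below, and the median was 0.13. Among all tested symbols 52.1% were above 0 and the median was 0.02. Scaled by library size only, these background values were 63.2% and 0.10. The values of the list at that scaling are not given here, so the 2 are not compared. At an unadjusted p under 0.05 there were 3 of 41 (7.32%), close to the 8.10% of all tested symbols, and all 3 were higher in doxorubicin hearts. These 3 were Socs2, Cish and Socs3, members of the SOCS family that STAT proteins induce and that then dampen cytokine and hormone receptors. DESeq2 and edgeR with no filter each called 2 genes of the list, Cish and Socs2, where they called 76 of 9205 (0.826%) and 61 of 13050 symbols (0.467%) in all, and limma voom called 0 of either.

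Socs2, an inhibitor known for restraining growth hormone signals, was 44.7, 48.9 and 37.2 CPM in control and 87.3, 69.0 and 129 CPM in doxorubicin libraries. The groups did not overlap, and doxorubicin library 3 was the highest. The log2 fold change was 1.13 (SE 0.24, unadjusted p 0.000320, adjusted p 0.125 by edgeR), with an adjusted p of 0.00756 in DESeq2. Cish, an inhibitor of STAT5 signals, was 35.9, 55.5 and 50.0 CPM in control and 71.6, 90.8 and 125 CPM in doxorubicin libraries. Its groups also did not overlap, with a log2 fold change of 1.02 (SE 0.24, adjusted p 0.157 by edgeR) and an adjusted p of 0.0209 in DESeq2.

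Socs3, the inhibitor that binds gp130, was 3.82, 4.44 and 3.98 CPM in control and 11.6, 5.62 and 8.55 CPM in doxorubicin libraries, a log2 fold change of 1.07 (SE 0.41, unadjusted p 0.0207, adjusted p 0.498 by edgeR). Stat3, the main STAT of gp130 receptors, was 183 to 220 CPM in control and 244 to 262 CPM in doxorubicin libraries. Its groups did not overlap, with a log2 fold change of 0.32 (SE 0.17, unadjusted p 0.0815). It was named after its values were seen, as were Jak2, Nfkbia and Myd88. Jak2, a kinase of type I cytokine receptors, had 0.63 (SE 0.32) with overlapping groups. On the NF-kappaB side, Nfkbia, a feedback inhibitor, had -0.37 (SE 0.25), and Myd88, the interleukin-1 receptor adaptor, had -0.04 (SE 0.29).

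The start region of Cish is shown because it is the signalling gene with both a DESeq2 call and a RefSeq region, at chr8:116850719-116851018 on the + strand of GRCr8, with capitals as above.
Cish: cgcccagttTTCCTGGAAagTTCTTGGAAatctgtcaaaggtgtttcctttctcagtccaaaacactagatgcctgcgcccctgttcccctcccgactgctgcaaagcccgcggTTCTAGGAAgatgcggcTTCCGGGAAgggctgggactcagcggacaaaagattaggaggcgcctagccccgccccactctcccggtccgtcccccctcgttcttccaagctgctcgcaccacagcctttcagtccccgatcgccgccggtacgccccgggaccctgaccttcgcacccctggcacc

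This region held 4 matches to the GAS motif and none to the other motifs, where 8.87% of all regions held at least 1 GAS match. STAT proteins bind such motifs in general, and binding was not measured in these hearts.

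Related cytokine and chemokine genes whose symbols the naming rule does not match were taken from a list of 39, of which 36 were in the table and 23 were tested. None passed the adjusted threshold in edgeR, and DESeq2 and limma voom also called 0. At an unadjusted p under 0.05 there were 4 of 23 (17.4%), against 8.10% of all tested symbols. Of these, 1 was higher (4.00% of all tested symbols) and 3 were lower (4.11%). Osmr, the oncostatin M receptor chain that pairs with gp130, was 2.29, 9.77 and 6.25 CPM in control and 14.4, 9.98 and 20.0 CPM in doxorubicin libraries. The groups only just separated, between control library 2 and doxorubicin library 2, with a log2 fold change of 1.30 (SE 0.44, unadjusted p 0.0106, adjusted p 0.411 by edgeR).

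Ackr3, a scavenger receptor that removes Cxcl11 and Cxcl12, was 128, 110 and 133 CPM in control and 80.9, 82.7 and 91.4 CPM in doxorubicin libraries. It was lower in each doxorubicin heart, as was its ligand Cxcl11, while Cxcl12 overlapped. The log2 fold change was -0.54 (SE 0.18, unadjusted p 0.00788, adjusted p 0.378 by edgeR). Cx3cl1, the membrane-bound chemokine fractalkine, had a log2 fold change of -0.49 (SE 0.21, unadjusted p 0.0341 by edgeR). It was -0.29 at an unadjusted p of 0.152 in edgeR without control library 1, which was the highest at 95.8 CPM against 64.9 and 69.6 CPM in the other controls. Ctf1, the gp130 ligand cardiotrophin, had -0.75 (SE 0.29, unadjusted p 0.0225). The groups of Cx3cl1 and of Ctf1 did not overlap. Cx3cr1, the fractalkine receptor, had 14 counts in all.

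**Figure D5:**
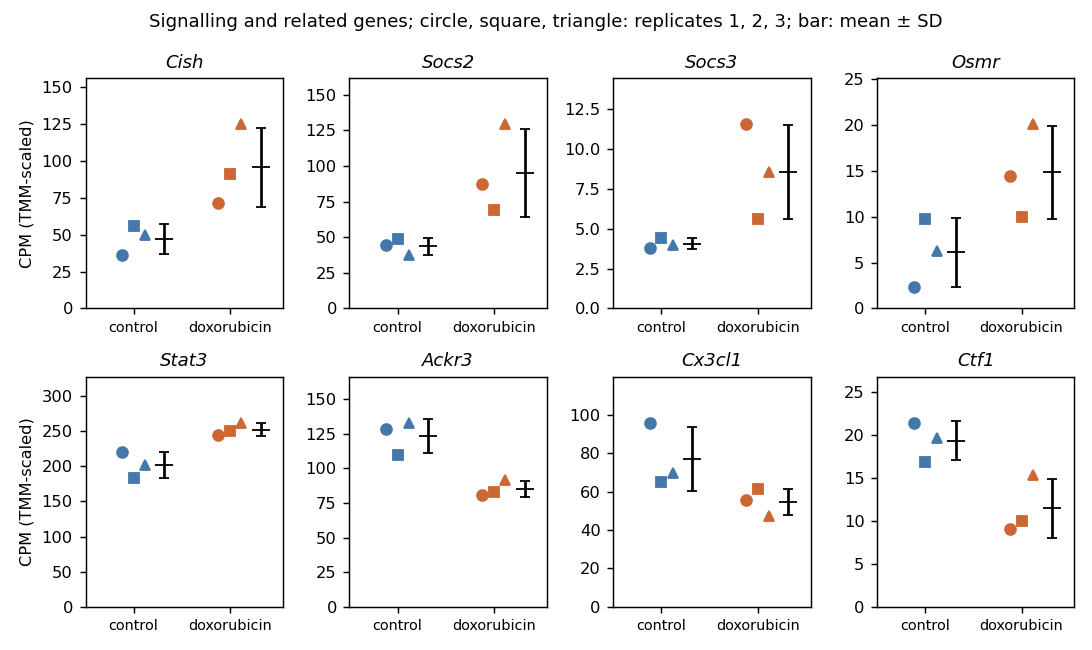
TMM-scaled CPM (y axis, from 0) in each control and doxorubicin library (x axis) for 7 genes of the signalling and related lists with an unadjusted p under 0.05 and for Stat3; marker shapes are replicate numbers and bars are mean ± SD (n = 3). Cish, Socs2, Socs3, Osmr and Stat3 are higher and Ackr3, Cx3cl1 and Ctf1 lower in each doxorubicin heart. None passed the adjusted threshold in edgeR with the low-count filter and all libraries, while Cish and Socs2 did with no filter.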

How the data were processed

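The authors deposited a table of raw read counts per annotated feature for 6 libraries, with no normalization. The submitters' processing notes name FastQC, Trimmomatic, STAR and HTSeq and the build mRatBN7.2, with no roles, and the annotation, counting mode and use of strand were not given in the sources used here. The table had 18473 rows under 17487 symbols, and rows of a symbol were summed. Treatment was tested with the quasi-likelihood F test of edgeR 4.0.16 in R 4.3.3, with TMM factors, robust dispersions and filterByExpr (minimum count 10, minimum total 15), which kept 9205 symbols. P-values were adjusted over all of them by the Benjamini-Hochberg method at a threshold of 0.05. The SE of a log2 fold change was its size divided by the square root of F. Principal components used log2 CPM with a prior count of 2. DESeq2 1.42.0, limma 3.58.1 voom, other scalings and filters, a replicate block and leaving out each library were alternatives. The fit was tested on simulated data.

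Members, gene lists and tests were chosen with earlier results of these data known. The naming rule took all tested members, with full statistics for those at an unadjusted p under 0.05 and the 10 with most counts, untested members with 10 or more counts in all, and listed genes at an unadjusted p under 0.05. Among the untested members, 1 is not reported here. Intervals were not computed, and the detection floor of 3 counts covers counting error only, because reads without molecular identifiers are not independent molecules. All 121 members matched the RefSeq list of GRCr8, used for overlaps, and 93 had a start region there. Same-numbered libraries did not deviate together (correlations of 0.021, -0.19 and -0.056 for numbers 1, 2 and 3).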

Additional observations from a re-analysis of the deposited data

How the results depend on the processing

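All listed alternatives were run, and fits without a library kept the same 9205 symbols. Causes of the changes were not tested. With 0 members past the adjusted p of 0.05, 15 of 16 alternatives gave 0 and DESeq2 gave 1. For DESeq2, adjusted p-values of Il1b, Ccl7, Ccl19 and Cxcl14 were not defined, and symbols without one counted as not passing. Over all symbols the count was 5, and it was 0 with library size only, 61 with no filter, 13 with the replicate block, 1 with non-robust dispersion, 76 with DESeq2, 0 with limma voom, 1 with only symbols on 1 row, and 0 to 34 when a library was left out, the highest without doxorubicin library 2. At an unadjusted p under 0.05 the 6 members were 3 with DESeq2 and 2 to 5 when a library was left out. Over all 9205 symbols the 746 were 681 with DESeq2 and 514 to 890 when a library was left out. The 7 of 31 members with groups that did not overlap were 14 of 87 with no filter and 11 of 45 with a mean CPM of at least 1. They were 9 to 11 of 31 when a library was left out, the most without doxorubicin library 3. A group of 2 libraries separates more readily than a group of 3. The shares over all symbols in these settings are not given here, so the higher counts are not read as a result about the members. For the signalling list the count of 0 was 2 with no filter, 2 with DESeq2 and 0 to 1 when a library was left out.

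The replicate block gave 0 members and 5 at an unadjusted p under 0.05. The replicate numbers come from the titles, which describe no pairing of animals. Scaling by library size only shifted the median log2 fold change from 0.02 to 0.10, and turned the sign of 5 of 31 tested members, Ccl19, Ccr10, Il17rc (0.039), Il18bp (0.044) and Il33. The replicate block and limma voom each turned 2, Il33 and Il34. Leaving out 1 library turned 15 of 31. Among the members given with full statistics these were Il10rb (range -0.29 to 0.075), Il11ra1 (-0.14 to 0.33), Il17rc (-0.19 to 0.20), Il18bp (-0.16 to 0.049) and Il4r (-0.10 to 0.17), and the others were Ccl19, Ccl5, Ccr10, Cxcl9, Il15, Il16, Il33, Il34, Il3ra and Il6r. Cxcl11, Ccl21, Il1b, Il13ra1, Cxcl10 and Ccl7 kept their direction in all 16 alternatives, with ranges of -0.94 to -0.75, -0.85 to -0.42, 0.93 to 1.60, 0.61 to 1.23, 0.73 to 1.49 and 0.81 to 1.46. Cxcl12, on several rows, had no value with only symbols on 1 row.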
